A study of Rattus norvegicus with 18 samples.

Results

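The collagen genes were taken as every gene whose single symbol in the platform's probe annotation had the form of a collagen chain, Col followed by a number, the letter a and a number. The rule found 41 of the 14217 genes with a single symbol, on 58 probe sets, and each gene was read on the probe set with the highest mean. Of the 41, 11 encode fibrillar collagens, 7 encode collagens of basement membranes (the sheets of matrix under epithelia and around vessels) and 23 encode other collagens. A filter on dim probe sets (on 3 or more of the 18 arrays the signal had to exceed the median of that array) passed 28 of them, 8 fibrillar, 6 basement membrane and 14 other. The 13 that did not pass were Col2a1, Col5a3, Col11a2, Col4a4, Col6a6, Col9a1, Col9a3, Col10a1, Col19a1, Col20a1, Col23a1, Col25a1 and Col26a1.

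The samples were ovarian follicles of Crl:CD(SD) rats, cut by laser from 8 µm frozen sections, 15 follicles for each phase, in 6 groups of 3 arrays. Control rats, which were not treated, gave follicles at 22:00 on the day of proestrus (control PeF, before ovulation) and at 10:00 on the day of estrus (control PoF, after ovulation). Indomethacin, which blocks prostaglandin synthesis, was given orally to some rats at 4 mg/kg at 16:00 of proestrus. Their follicles were taken at 22:00 of that day (IM PeF), and their unruptured follicles at 10:00 of the next (IM UF). Other rats received RU486, which antagonises progesterone and glucocorticoid receptors, orally at 100 mg/kg at 10:00 of proestrus. Follicles taken from them at those hours make up RU PeF and, unruptured, RU UF. On the day of estrus the control follicles had ruptured and the treated ones had not, so treatment and rupture cannot be told apart there. Each group had 3 animals at a time, per the labels, which do not say which array came from which animal, so p-values measure the spread between arrays, which may be technical. A follicle is a mixture of cells, and fewer cells of a type cannot be told apart from less RNA per cell.

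Collagens are triple-helical proteins of the extracellular matrix. Fibrillar chains assemble into the fibres that give the theca externa and tunica albuginea their strength, type IV chains form the network of the basal lamina between granulosa and theca and around capillaries, and further collagens decorate fibrils, make beaded filaments or span the membrane. Ovulation requires the wall of the follicle to be thinned and opened at its apex, and the ruptured follicle is then invaded by vessels and rebuilt as a corpus luteum. Prostaglandins and progesterone receptor signalling are both needed for rupture in the rat.

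The promoters of members whose levels moved together or in opposite directions are shown first. Col1a2 and Col11a1, both fibrillar chains, moved in opposite directions between proestrus and estrus (on the signals as deposited, with no scaling between arrays, Col11a1 was above 0 in the controls too), and Col4a1 and Col4a2, which moved together, lie head to head with their start sites 76 bases apart. The sequences come from RefSeq promoters of build GRCr8 and run 5′ to 3′ on the plus strand, with 250 bases before the start of Col1a2 (chr4:33518307-33518556) and Col11a1 (chr2:204508886-204509135) and the whole stretch between the starts of Col4a2, on the minus strand, and Col4a1, on the plus strand (chr16:84885521-84885596). Capitals mark the letters of the CCAAT box (CCAAT), of the GC box (GGGCGG) and of the TATA box (TATAAA) on either strand, so that the reverse complement of each is in capitals too.
Col1a2: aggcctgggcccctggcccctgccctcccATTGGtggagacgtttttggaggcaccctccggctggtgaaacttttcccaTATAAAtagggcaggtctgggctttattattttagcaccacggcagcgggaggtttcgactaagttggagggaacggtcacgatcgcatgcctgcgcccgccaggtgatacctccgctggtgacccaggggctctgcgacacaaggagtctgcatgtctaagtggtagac
Col11a1: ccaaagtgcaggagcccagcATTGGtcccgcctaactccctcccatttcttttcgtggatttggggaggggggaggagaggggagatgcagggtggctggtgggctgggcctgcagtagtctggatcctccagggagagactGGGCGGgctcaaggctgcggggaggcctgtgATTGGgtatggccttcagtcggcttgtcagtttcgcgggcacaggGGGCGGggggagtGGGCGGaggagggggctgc
between Col4a2 and Col4a1: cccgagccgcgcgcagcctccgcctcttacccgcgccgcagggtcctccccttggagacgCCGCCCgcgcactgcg

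The Col1a2 stretch held 1 CCAAT box and 1 TATA box, that of Col11a1 held 2 CCAAT boxes and 3 GC boxes, and the stretch between Col4a2 and Col4a1 held 1 GC box with a GC content of 78.9%. Promoters were matched for 32 of the 41 genes, of which 9 held a CCAAT box, 18 a GC box and 4 a TATA box in the 250 bases before the start. Among all 33469 promoters of that length, 34.0% held the CCAAT box, 30.5% the GC box and 12.9% the TATA box. The other type IV pairs were also head to head, with 412 bases between the starts of Col4a4 and Col4a3 and 1414 between those of Col4a6 and Col4a5. Such matches describe letters in a window and show no bound factor.

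The deposited signals were not on a common scale: the median signal of an array ran from 4.4 (control PeF 3) to 27.4, and 45.7% to 75.3% of probe sets stood above unspiked control probe sets. All levels below are therefore log2 of the quantile-normalised signal plus 2.79, and every difference is relative to that scale, with its SE from limma and p-values adjusted by Benjamini-Hochberg over all 18158 probe sets tested at a threshold of 0.05. On the signals as deposited, the median gene moved by 1.38 between control PeF and control PoF and by 0.83 between control PeF and RU PeF. Granulosa markers were detected in every group, with Inha, Cyp19a1 and Foxl2 among them, and the mean log2 level of 9 granulosa genes ran from 8.88 to 9.41 in control PeF. The mean level of 10 smooth muscle and pericyte markers ran from 5.03 to 5.48 in control PeF, 5.17 to 5.28 in IM PeF and 4.61 to 4.84 in RU PeF, and from 6.09 to 6.40 in control PoF, 6.42 to 6.48 in IM UF and 5.55 to 5.74 in RU UF. Theca and stroma markers ran from 7.72 to 7.96 in control PeF and from 7.03 to 7.56 in RU PeF, and endothelial markers from 6.18 to 6.39 and from 5.62 to 5.93.

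Collagen genes were among those lower in RU486-treated follicles at proestrus, 5 of 8 fibrillar, 4 of 14 other and 1 of 6 basement membrane. The last was Col4a5, a call lost in 7 of 18 fits that left out 1 array. In RU PeF against control PeF, 10 of the 28 tested members were lower and 0 higher, where 8.52% of all genes tested were called, 4.74% lower and 3.79% higher. The members that fell were Col1a1, Col1a2, Col3a1, Col5a2 and Col11a1 of the fibrillar class, Col4a5 of the basement membrane class, and Col6a1, Col6a3, Col7a1 and Col12a1. The median difference of the 28 was -0.52, beside 0.055 over all genes tested. Without normalisation the members' median was 0.14 while that of all genes was 0.83, a difference between them of -0.68. No member was called there, with 0.154% of all genes called, and Col1a2, Col5a2, Col11a1, Col4a5 and Col6a3 were above 0. The same signals without the 3 dimmest arrays (control PeF 3, IM PeF 2 and IM UF 2) gave 9 members lower, all among the 10. There 7.76% of all genes were called. Scaling each array to a common median gave 3 members lower, and a fit of only the RU PeF and control PeF arrays also 3.

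Markers moved beside this result. In the same comparison 4 of 9 tested smooth muscle and pericyte markers were lower and 0 higher, 3 of 8 theca and stroma markers lower and 1 higher, 2 of 9 endothelial markers lower and 0 higher, 2 of 9 granulosa markers lower and 0 higher, and 1 of 8 leukocyte markers lower and 1 higher, with Cspg4 at background in control PeF. The granulosa list did not fall as a whole: its median difference was 0.30, beside 0.055 over all genes. Its mean level ran from 9.17 to 9.63 in RU PeF and from 8.88 to 9.41 in control PeF. Control probe sets against the 3′ and 5′ ends of Gapdh, a measure of RNA integrity, differed by 2.96 to 4.11 (log2) in control PeF and by 2.66 to 2.95 in RU PeF. Those of beta-actin overlapped, at 4.23 to 5.93 in control PeF and 4.76 to 5.24 in RU PeF. The part of cell makeup and RNA quality in the result was not tested.

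At estrus, RU UF had 7 of 28 collagen genes lower than control PoF and 0 higher, where 10.0% of all genes were called, 5.51% lower and 4.52% higher. These were Col5a2, Col11a1, Col4a1, Col4a2, Col6a3, Col12a1 and Col13a1. The members' median was -0.49, beside -0.036 over all genes. None of the 7 was called on the signals as deposited, where 0.819% of all genes were called. There the median of all genes was -0.72 and that of the members -1.15. A fit of only these 2 groups gave 12 members lower, where 19.5% of all genes were called. Of 9 smooth muscle and pericyte markers 0 passed in limma and 6 had an unadjusted p under 0.05, and the mean level of that list was lower in all 3 RU UF arrays than in any control PoF array, and 1 of 9 endothelial markers was lower. Of 9 granulosa markers 2 were higher and 1 lower, with a mean level of 8.95 to 9.13 in RU UF and 8.32 to 8.47 in control PoF, and of 8 theca and stroma markers 2 were higher and 3 lower. The Gapdh 3′ and 5′ signals differed by 2.07 to 2.31 in control PoF and by 2.86 to 3.27 in RU UF. Those of beta-actin overlapped, at 4.92 to 5.18 and 4.79 to 5.64. Their part in the result was not tested.

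**Figure D1:**
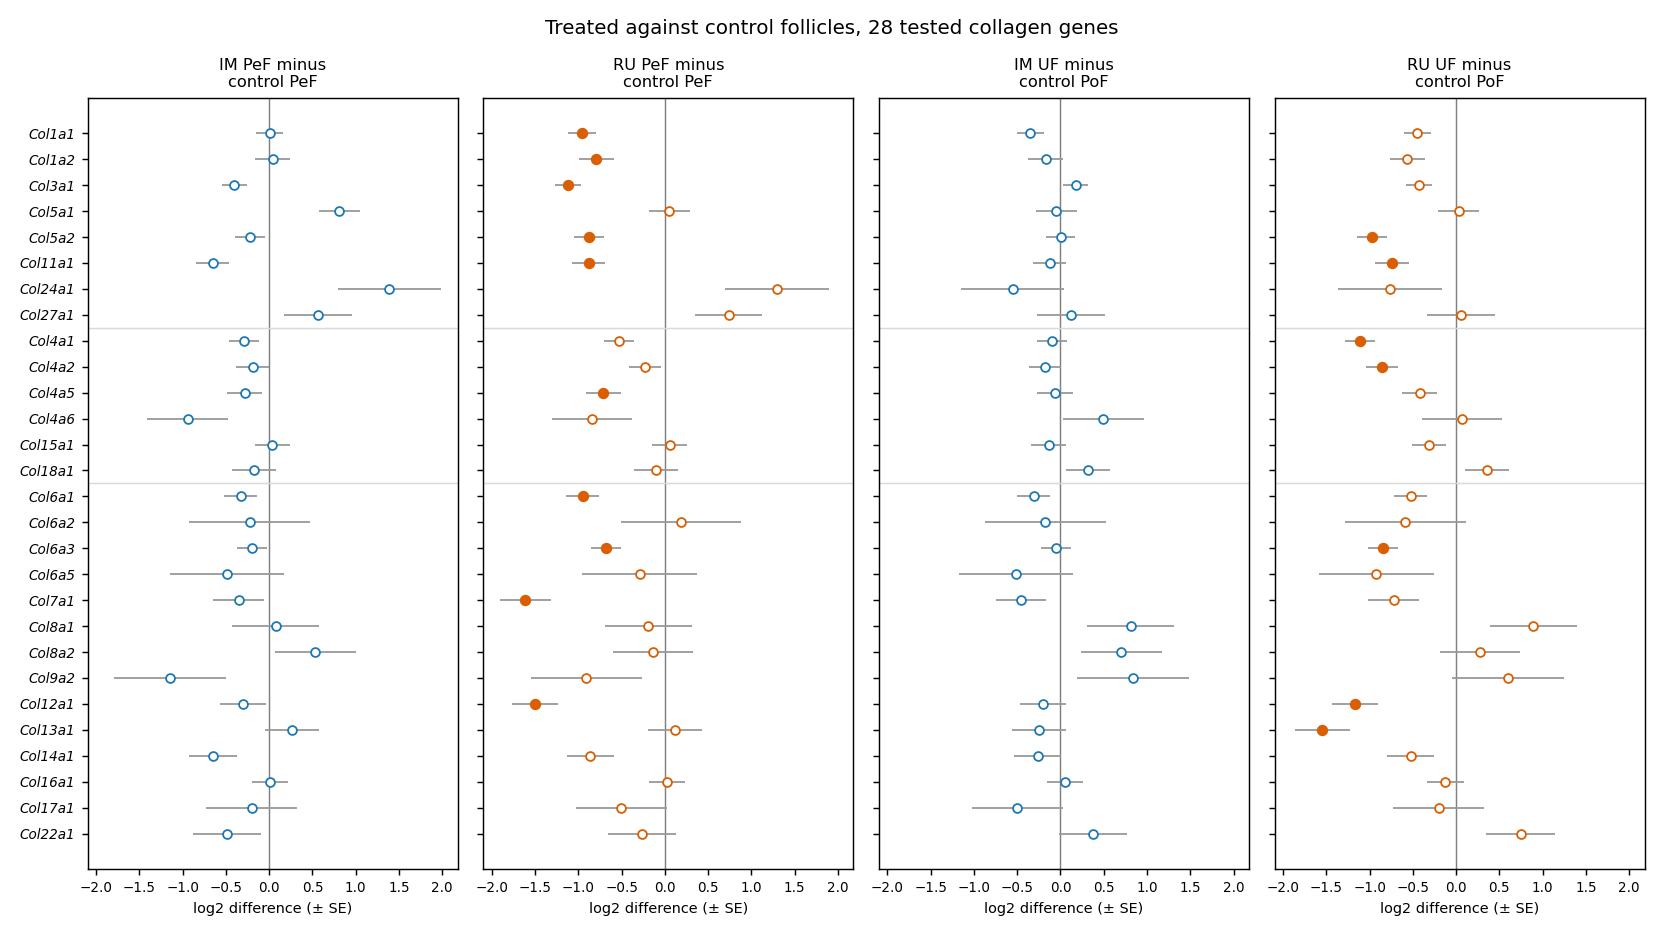
Log2 differences of the 28 tested collagen genes for each treatment against its control at proestrus (22:00) and at estrus (10:00), with filled points for genes past an adjusted p of 0.05 and bars for the SE. RU486 has 10 filled points at proestrus and 7 at estrus, all below 0, and indomethacin has none; on the signals as deposited no point passes and Col1a2, Col5a2, Col11a1, Col4a5 and Col6a3 lie above 0 for RU486 at proestrus.

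Indomethacin gave 0 collagen genes past the threshold in limma. In IM PeF against control PeF 0 of 28 passed, with 0% of all genes called, 5 members at an unadjusted p under 0.05 and a median difference of -0.21 (all genes 0.054). In IM UF against control PoF 0 of 28 passed, with 0.0482% of all genes called, 1 member at an unadjusted p under 0.05 and a median of -0.11. With arrays weighted by quality, 8 members passed in IM PeF against control PeF, 2 higher and 6 lower, where 11.8% of all genes were called. These misses do not show that indomethacin left collagen levels unchanged: for Col3a1, which encodes the type III chain, the difference in IM PeF was -0.40 (95% interval -0.72 to -0.088, adjusted p = 0.381).

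The treated groups were also set directly against each other. RU PeF had 6 members lower than IM PeF and 0 higher (6.04% of all genes called, 3.86% lower and 2.18% higher): Col1a1 (-0.96), Col1a2 (-0.83), Col3a1 (-0.72), Col5a2 (-0.65), Col7a1 (-1.26) and Col12a1 (-1.20). RU UF had 7 lower than IM UF and 0 higher (7.84% called, 4.37% lower and 3.47% higher): Col3a1 (-0.61), Col5a2 (-0.97), Col4a1 (-1.01), Col4a2 (-0.68), Col6a3 (-0.79), Col12a1 (-0.96) and Col13a1 (-1.30). Without IM PeF 2 the first count was 3 (3.25% of all genes called). The second was 3 without IM UF 2 (4.29%), 2 without RU UF 2 (4.02%) and 4 without RU UF 3 (4.65%). No member passed in either comparison on the signals as deposited, with 0.260% and 0.202% of all genes called. In RU PeF against IM PeF 2 of 9 smooth muscle and pericyte markers were lower and 0 higher, 3 of 8 theca and stroma markers lower and 1 higher, 1 of 9 granulosa markers lower and 1 higher, and 1 of 8 leukocyte markers higher. In RU UF against IM UF 2 of 9 smooth muscle and pericyte markers were lower and 0 higher, 2 of 8 leukocyte markers lower and 0 higher, 1 of 8 theca and stroma markers lower and 2 higher, and 1 of 9 granulosa markers higher. Their part in the result was not tested. The compounds differ in dose and hour of dosing as well as in target, so these contrasts compare 2 regimens.

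From proestrus to estrus collagen genes were called in both directions in the control follicles, 14 of 28 and a share near that of all genes. In control PoF against control PeF 9 of 28 were higher and 5 lower, where 44.2% of all genes were called, 24.5% higher and 19.6% lower, and the members' median was 0.40 beside 0.079. Without control PoF 3 the calls numbered 9 in all, with 35.5% of all genes called. Those higher were Col1a1, Col1a2, Col5a1, Col5a2, Col4a1, Col4a2, Col15a1, Col6a3 and Col13a1. Those lower were Col11a1, Col4a6, Col7a1, Col14a1 and Col22a1. On the signals as deposited, however, 12 members were higher and 0 lower, with 33.7% of all genes called. There Col11a1 (0.24), Col7a1 (0.38) and Col14a1 (0.38) were above 0 in a comparison whose median gene moved by 1.38. Over the same interval 6 of 9 smooth muscle and pericyte markers were higher and 1 lower, 3 of 9 granulosa markers higher and 4 lower, 0 of 8 theca and stroma markers higher and 3 lower, 1 of 9 endothelial markers higher and 2 lower, and 1 of 8 leukocyte markers higher and 0 lower. The mean granulosa level lay between 8.88 and 9.41 in control PeF and between 8.32 and 8.47 in control PoF, and that of theca and stroma markers between 7.72 and 7.96 and between 6.97 and 7.34. The Gapdh difference between its ends went from 2.96 to 4.11 in control PeF to 2.07 to 2.31 in control PoF. That of beta-actin overlapped, at 4.23 to 5.93 in control PeF and 4.92 to 5.18 in control PoF. The part of these markers and of RNA quality in the result was not tested.

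In IM UF against IM PeF 10 members were higher and 3 lower (37.8% of all genes called, 19.4% higher and 18.4% lower), and in RU UF against RU PeF 8 were higher and 3 lower (42.7% called, 21.3% higher and 21.4% lower). Col1a1 and Col1a2 were higher and Col11a1 lower at estrus in all 3 regimens, apart from Col11a1 in the controls on the signals as deposited (0.24). The other tested probe set was not called for Col11a1 with indomethacin (-0.15, adjusted p = 0.607), nor for Col1a1 with indomethacin (0.25, adjusted p = 0.317) or in the controls (0.20, adjusted p = 0.410). Col8a1, a short-chain collagen of vessel walls, and Col3a1 were called higher in both treated regimens and not in the controls, and Col24a1 lower in both and not in the controls, but the interaction of drug and time was called for none of these 3 genes. Of these, Col24a1 passed the filter through proestrus arrays only. Smooth muscle and pericyte markers went from proestrus to estrus with 7 of 9 higher and 0 lower in the indomethacin regimen and 6 higher and 1 lower in the RU486 regimen. In the indomethacin regimen 3 of 9 granulosa markers were higher and 2 lower, 1 of 8 theca and stroma markers higher and 3 lower, 1 of 9 endothelial markers higher and 1 lower, 1 of 8 leukocyte markers higher, and 1 of 3 oocyte markers lower. In the RU486 regimen 3 granulosa markers were higher and 5 lower, 2 theca and stroma markers higher and 1 lower, 0 endothelial markers higher and 2 lower, 1 leukocyte marker higher and 1 lower, and 1 oocyte marker lower. Their part was not tested. Without RU UF 1 the RU486 regimen had 7 calls, with 35.8% of all genes called. On the signals as deposited each of these 2 comparisons called 1 member, with 3.70% of all genes called for indomethacin and 5.71% for RU486.

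**Figure D2:**
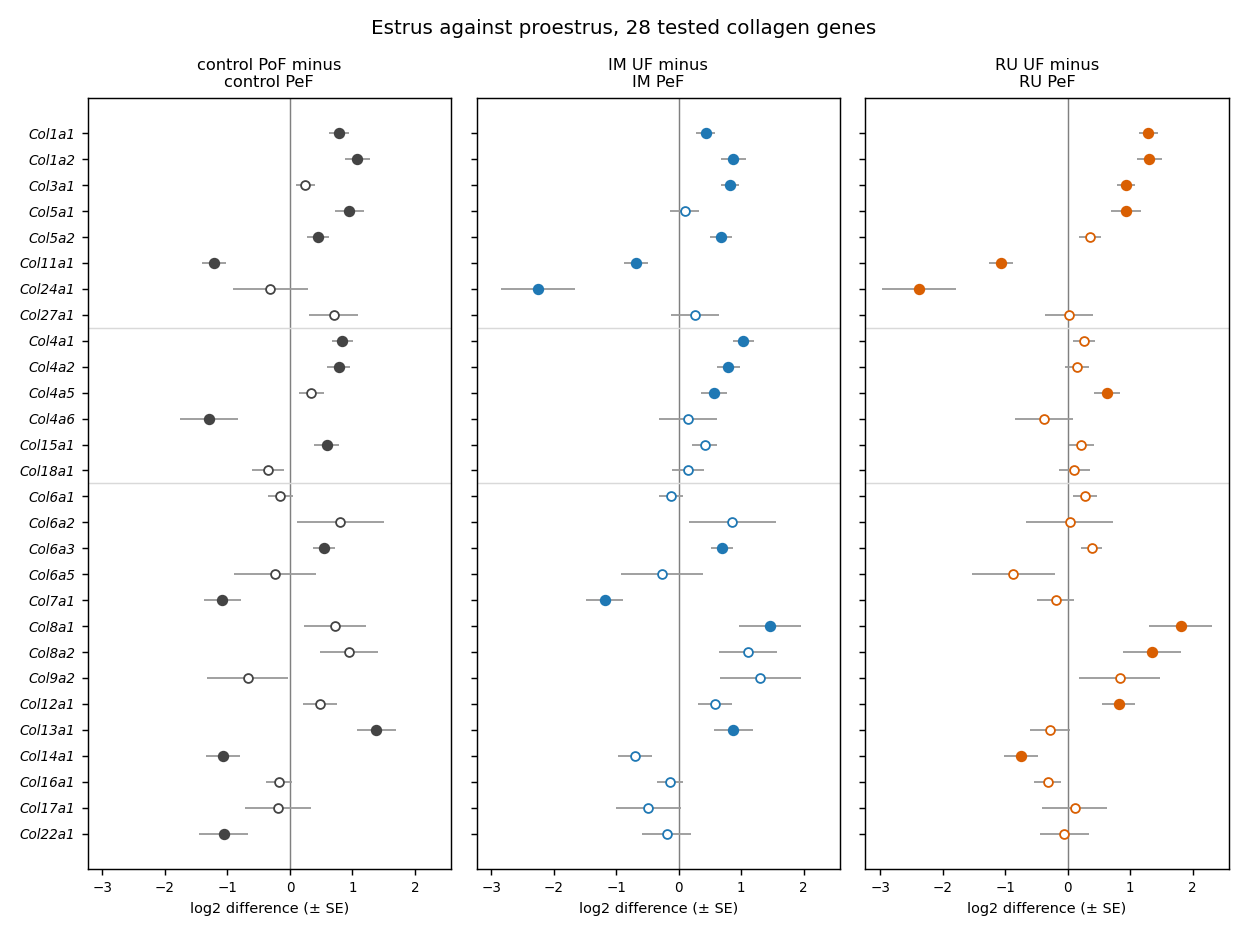
Log2 differences from proestrus (22:00) to estrus (10:00) of the 28 tested collagen genes in control, indomethacin and RU486 follicles, with filled points for genes past an adjusted p of 0.05 and bars for the SE. Col1a1 and Col1a2 lie above 0 and Col11a1 below 0, filled in all 3 regimens on the probe sets used. For the controls Col11a1 lies above 0 on the signals as deposited when control PeF 3, the dimmest array, is included.

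The interaction of RU486 and time was called for 1 member of 28 (0 higher and 1 lower; 4.45% of all genes called, 2.26% higher and 2.19% lower), Col13a1. The same interaction for indomethacin called 0 members and 0% of all genes in limma, with 5 members at an unadjusted p under 0.05. With arrays weighted by quality it called 1 member and 3.08% of all genes. Col3a1 (0.69 ± 0.21, adjusted p = 0.0775), Col4a1 (-0.58 ± 0.24, adjusted p = 0.1997) and Col4a2 (-0.63 ± 0.27, adjusted p = 0.204) did not pass it, so a fall called at one time only was not shown to differ from the other time for these genes.

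Type I collagen, the main fibre protein of the ovarian stroma, is a trimer of Col1a1 and Col1a2 chains. At proestrus the log2 level of Col1a1 (gene ID 29393) was 8.28, 8.22 and 7.74 in control PeF, 8.00, 8.21 and 8.05 in IM PeF and 7.34, 7.02 and 7.01 in RU PeF. The estrus levels were 9.01, 8.90 and 8.68 in control PoF, 8.66, 8.54 and 8.34 in IM UF and 8.33, 8.41 and 8.50 in RU UF. All 3 RU PeF arrays lay below every other proestrus array, and all 3 control PoF arrays above every control PeF array. In RU PeF against control PeF the difference was -0.96 ± 0.16, 1.94-fold lower, adjusted p = 0.00121. The rise to control PoF was 0.78 ± 0.16, 1.72-fold higher, adjusted p = 0.000799, and that within RU486 follicles 1.29 ± 0.16, 2.45-fold higher, adjusted p = 5.17e-06. Indomethacin follicles rose by 0.43 ± 0.16, adjusted p = 0.0435, a call lost without control PoF 2, IM PeF 1 or 3, IM UF 1 or 2 or RU UF 1, 2 or 3 (adjusted p = 0.0505 to 0.148).

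Col1a2 (gene ID 84352), whose stretch above held the letters TATAAA, had proestrus levels of 9.54, 9.26 and 8.57 in control PeF, 9.12, 9.12 and 9.25 in IM PeF and 8.43, 8.13 and 8.43 in RU PeF. Levels at estrus were 10.00, 10.46 and 10.16 in control PoF, 10.30, 9.72 and 10.08 in IM UF and 9.73, 9.52 and 9.67 in RU UF. The RU PeF arrays lay below all control PeF arrays, of which control PeF 3 was the lowest, and estrus arrays lay above proestrus arrays in each regimen. RU486 at proestrus gave -0.79 ± 0.20, 1.73-fold lower, adjusted p = 0.0217 (0.13 on the signals as deposited), a call lost without control PeF 1 or 2 or RU PeF 2 or 3 (adjusted p = 0.0530 to 0.0984). The fall against IM PeF was lost without IM PeF 2 or 3 or RU PeF 2 (adjusted p = 0.0569 to 0.0996). From proestrus to estrus the gene rose by 1.08 ± 0.20, 2.11-fold higher, adjusted p = 0.000388, in the controls, by 0.87 with indomethacin and by 1.31 with RU486. The estrus difference for RU486 was -0.56 (95% interval -0.98 to -0.14, adjusted p = 0.0969) and was not called. The other tested probe set of Col1a2 was called lower there (-0.61, adjusted p = 0.0174).

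Col3a1, the single chain of type III collagen that makes the thin reticular fibres around follicles and vessels, had levels (gene ID 84032) of 11.04, 10.94 and 10.82 in control PeF, 10.28, 10.80 and 10.52 in IM PeF and 9.82, 9.98 and 9.64 in RU PeF. At estrus they were 11.08, 11.19 and 11.26 in control PoF, 11.32, 11.57 and 11.16 in IM UF and 10.86, 10.46 and 10.92 in RU UF. RU PeF was the lowest of the 3 proestrus groups with no overlap, and RU UF the lowest at estrus. In RU PeF the difference from control PeF was -1.12 ± 0.15, 2.18-fold lower, adjusted p = 0.000183, called in every fit that left out 1 array. Both treated regimens rose to estrus, IM by 0.82 ± 0.15, adjusted p = 0.000380 and RU by 0.93 ± 0.15, adjusted p = 8.65e-05. RU UF differed from IM UF by -0.61 ± 0.15, adjusted p = 0.0187, a call lost without IM UF 2 or RU UF 2 (adjusted p = 0.103 to 0.115).

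Type V chains join type I fibrils and limit their diameter. Col5a2 (gene ID 85250) stood at 8.99, 9.20 and 8.80 in control PeF, 8.84, 8.83 and 8.65 in IM PeF and 8.28, 8.34 and 7.73 in RU PeF. At the later time it stood at 9.48, 9.40 and 9.45 in control PoF, 9.35, 9.49 and 9.49 in IM UF and 8.84, 8.18 and 8.40 in RU UF. RU486 arrays lay below the control and indomethacin arrays at both times without overlap. The RU486 differences were -0.88 ± 0.17, 1.84-fold lower, adjusted p = 0.00474, at proestrus (0.044 on the signals as deposited) and -0.97 ± 0.17, 1.96-fold lower, adjusted p = 0.00145, at estrus. Both were called in every fit without 1 array. The rise in the controls, 0.45 ± 0.17, adjusted p = 0.0461, was close to the threshold and lost without control PeF 1 or 3, control PoF 1, 2 or 3, IM PeF 1 or 3, IM UF 1, 2 or 3, RU PeF 1 or RU UF 3 (adjusted p = 0.0507 to 0.158). Against IM PeF the RU PeF call was lost without IM PeF 1, 2 or 3 or RU PeF 3 (adjusted p = 0.0557 to 0.179).

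Col5a1, the partner chain (gene ID 85490), had 7.93, 7.49 and 7.96 in control PeF, 8.56, 8.47 and 8.79 in IM PeF and 7.85, 8.07 and 7.63 in RU PeF. Estrus levels were 8.36, 8.83 and 9.06 in control PoF, 8.81, 8.64 and 8.66 in IM UF and 8.11, 9.08 and 9.16 in RU UF. The IM PeF arrays were the highest at proestrus, and RU PeF overlapped control PeF, unlike Col5a2. The gene rose in the controls by 0.95 ± 0.24, 1.93-fold higher, adjusted p = 0.00398, and in RU486 follicles by 0.93 ± 0.24, 1.91-fold higher, adjusted p = 0.00444, where its other probe set gave 0.32 (adjusted p = 0.302). For RU486 the proestrus difference was 0.052 (95% interval -0.45 to 0.55, adjusted p = 0.924) and for indomethacin 0.81 (95% interval 0.31 to 1.31, adjusted p = 0.330), neither called. The other probe set gave 0.20 (adjusted p = 0.748) for indomethacin at proestrus. A test of Col5a1 against Col5a2 was not made.

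Col11a1, a minor fibrillar chain that nucleates fibrils and is best known in cartilage, went the other way in time. Its proestrus levels (gene ID 25654) were 9.35, 9.27 and 9.77 in control PeF, 8.94, 8.56 and 8.93 in IM PeF and 8.89, 8.23 and 8.62 in RU PeF. At estrus they were 8.30, 8.44 and 8.00 in control PoF, 8.17, 8.37 and 7.82 in IM UF and 7.62, 7.53 and 7.38 in RU UF. Every estrus array lay below every proestrus array of its regimen, and RU UF lay below both other estrus groups. In the controls the change was -1.22 ± 0.19, 2.32-fold lower, adjusted p = 9.28e-05. On the signals as deposited the same difference was 0.24 while the median gene moved by 1.38. Those signals were 541, 799 and 121.5 in control PeF, the last on control PeF 3, the dimmest array. They were 463, 486 and 393 in control PoF. Indomethacin follicles changed by -0.69 ± 0.19, adjusted p = 0.0105, a call lost without IM UF 3 (adjusted p = 0.0643), and RU486 follicles by -1.07 ± 0.19, adjusted p = 0.000266.

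Against controls, RU486 follicles differed in Col11a1 at proestrus by -0.88 ± 0.19, adjusted p = 0.00962 (0.0087 on the signals as deposited), a call lost without RU PeF 2 (adjusted p = 0.0615). At estrus the difference was -0.74 ± 0.19, adjusted p = 0.0222, lost without control PoF 1 or 2 or RU UF 2 or 3 (adjusted p = 0.0657 to 0.105). Col24a1, a fibrillar chain of developing bone and cornea, was dim (gene ID 499723), with 4.58, 4.66 and 2.07 in control PeF, 5.24, 4.83 and 5.39 in IM PeF and 5.30, 4.71 and 5.19 in RU PeF. Its estrus levels were 3.62, 3.69 and 3.05 in control PoF, 3.35, 1.94 and 3.42 in IM UF and 3.23, 1.92 and 2.92 in RU UF, and all RU UF arrays were at or below background. It was lower at estrus than at proestrus in indomethacin follicles (log2 difference -2.25 ± 0.60, adjusted p = 0.00724) and in RU486 follicles, by -2.37 ± 0.60, adjusted p = 0.00411, where a level at background makes the size uncertain. Its signal exceeded the array median on proestrus arrays only. The gene thus passed the filter through the groups where it was high, and these calls are not independent of that selection. Control PeF 3, the dimmest array, lay at 2.07, and the controls were not called. Col27a1, the last fibrillar chain tested, passed in no comparison and ran from 3.23 to 4.90.

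**Figure D3:**
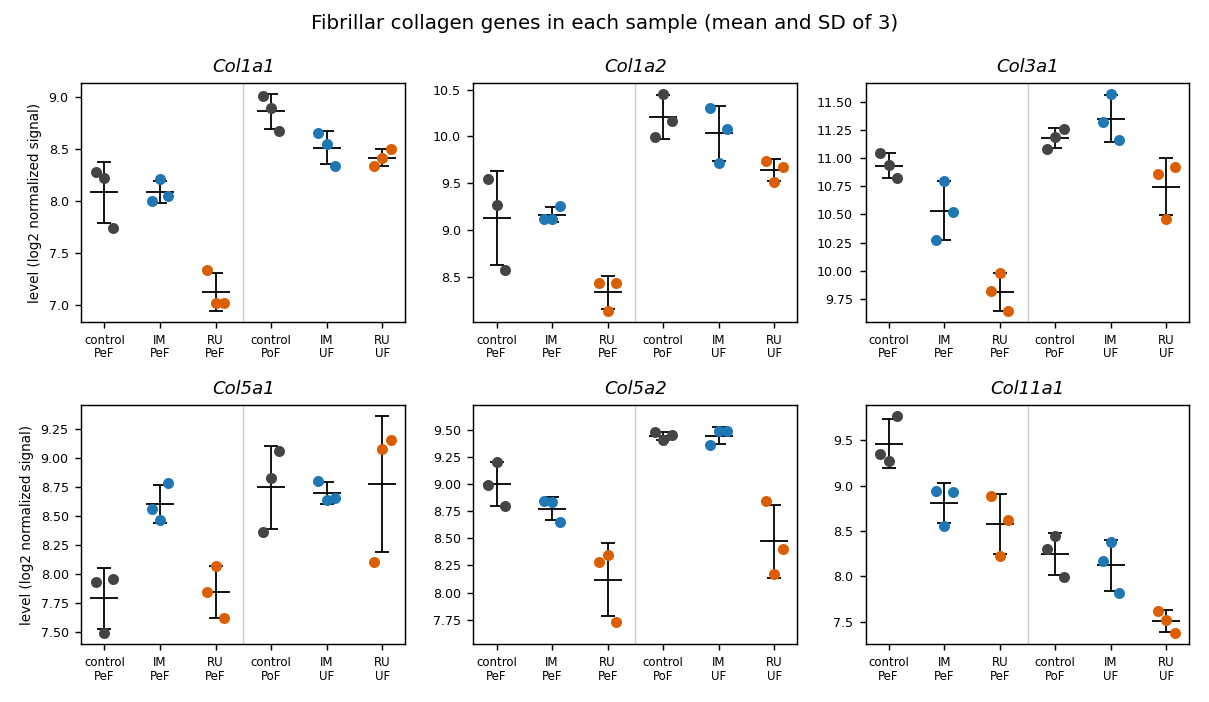
Log2 levels of 6 fibrillar collagens in each of the 18 arrays, grouped as control PeF, IM PeF, RU PeF, control PoF, IM UF and RU UF, with each group's mean and SD of 3 arrays. The RU PeF arrays of Col1a1, Col3a1 and Col5a2 lie below all control PeF arrays, and Col11a1 is lower at estrus than at proestrus in every regimen. On log2 of the signals as deposited, Col5a2 in RU PeF and Col11a1 in control PoF have means above those of control PeF. Control PeF 3 is the dimmest array.

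Among basement membrane collagens, Col4a1 and Col4a2 encode the 2 chains of the most widespread type IV network. Col4a1 (gene ID 290905) had proestrus levels of 9.15, 9.07 and 9.16 in control PeF, 8.94, 8.52 and 9.05 in IM PeF and 8.61, 8.65 and 8.52 in RU PeF. Its estrus levels were 9.52, 10.19 and 10.19 in control PoF, 9.85, 9.83 and 9.92 in IM UF and 8.85, 8.63 and 9.10 in RU UF. Control PoF and IM UF arrays stood at 9.52 or more, while RU UF arrays stood at 9.10 or less, within the range of the proestrus groups. The gene rose in the controls by 0.84 ± 0.17, 1.79-fold higher, adjusted p = 0.000848, and in indomethacin follicles by 1.03 ± 0.17, 2.05-fold higher, adjusted p = 0.000154. In RU486 follicles it went from proestrus to estrus by 0.26 (95% interval -0.10 to 0.62, adjusted p = 0.241), which was not called. RU UF differed from control PoF by -1.11 ± 0.17, 2.16-fold lower, adjusted p = 0.000422, called in every fit without 1 array.

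Col4a2 (gene ID 306628), whose start lies 76 bases from that of Col4a1, had levels of 7.5, 7.72 and 7.79 in control PeF, 7.82, 7.28 and 7.34 in IM PeF and 7.62, 7.58 and 7.13 in RU PeF. At estrus these were 8.17, 8.58 and 8.60 in control PoF, 8.21, 8.25 and 8.35 in IM UF and 7.79, 7.29 and 7.69 in RU UF. Here too RU UF lay below both other estrus groups. The rise was 0.78 ± 0.19, 1.72-fold higher, adjusted p = 0.00320, in the controls and 0.79 ± 0.19, adjusted p = 0.00336 with indomethacin. RU UF differed from control PoF by -0.86 ± 0.19, adjusted p = 0.00757, a call lost without RU UF 2 (adjusted p = 0.0535). Against IM UF the difference was -0.68 ± 0.19, adjusted p = 0.0352, lost without IM UF 1, 2 or 3 or RU UF 2 or 3 (adjusted p = 0.0702 to 0.176). At proestrus RU486 changed neither past the threshold: Col4a1 -0.53 ± 0.17, adjusted p = 0.0661; Col4a2 -0.23 ± 0.19, adjusted p = 0.489.

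Col4a5 and Col4a6 encode chains of a second type IV network found in some epithelia, and they too lie head to head. Col4a5 (gene ID 363457) had 8.58, 9.07 and 8.84 in control PeF, 8.61, 8.81 and 8.22 in IM PeF and 8.13, 8.36 and 7.88 in RU PeF. Estrus values were 9.14, 9.03 and 9.35 in control PoF, 8.97, 9.26 and 9.09 in IM UF and 9.24, 8.43 and 8.58 in RU UF. RU PeF lay below control PeF without overlap, by -0.71 ± 0.20, adjusted p = 0.0409 (0.21 on the signals as deposited), but the call was lost without control PeF 2 or 3, control PoF 1 or 2, IM UF 3 or RU PeF 1 or 3 (adjusted p = 0.0519 to 0.170). The gene rose with indomethacin by 0.56 ± 0.20, adjusted p = 0.0409, lost without control PoF 1, IM PeF 1 or 3 or IM UF 1, 2 or 3 (adjusted p = 0.0502 to 0.193). With RU486 it rose by 0.63 ± 0.20, adjusted p = 0.0202, lost without RU PeF 3 or RU UF 1 (adjusted p = 0.0931 to 0.140), and the difference was 0.39 without RU UF 1.

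Unlike its neighbour, Col4a6 (gene ID 363458) was dim and was lower at estrus in the controls. Its levels were 3.94, 4.63 and 4.97 in control PeF, 3.83, 3.40 and 3.48 in IM PeF and 3.85, 3.78 and 3.36 in RU PeF. At estrus it had 3.46, 3.80 and 2.38 in control PoF, 3.18, 4.49 and 3.47 in IM UF and 3.52, 3.63 and 2.7 in RU UF. Every control PoF array lay below every control PeF array, and the treated groups at proestrus lay below control PeF. The control difference was -1.29 ± 0.47, adjusted p = 0.0344, lost without control PoF 1 or 3 (adjusted p = 0.05004 to 0.180). Only on control PeF 2, control PeF 3 and IM UF 2 did the signal exceed the array median, so Col4a6 passed the filter mainly through control PeF, where it was high. Fits that left out 1 of these arrays did not test the gene, and 15 of 18 fits tested it. No other comparison called it.

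Col15a1 and Col18a1 encode the multiplexin collagens of vascular and epithelial basement membranes, which release anti-angiogenic fragments. Col15a1 (gene ID 298069) stood at 6.14, 6.30 and 6.15 in control PeF, 6.21, 6.31 and 6.16 in IM PeF and 6.01, 6.68 and 6.06 in RU PeF. Later it stood at 6.46, 6.96 and 6.92 in control PoF, 6.71, 6.48 and 6.75 in IM UF and 6.35, 6.47 and 6.59 in RU UF. Control PoF lay above control PeF without overlap, with a rise of 0.59 ± 0.20, adjusted p = 0.0275, lost without control PeF 1 or 3 or control PoF 2 or 3 (adjusted p = 0.0510 to 0.107). Col18a1 passed in no comparison, with a range from 9.87 to 11.06 at proestrus and from 10.10 to 11.08 at estrus, both ends of each from RU486 arrays.

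**Figure D4:**
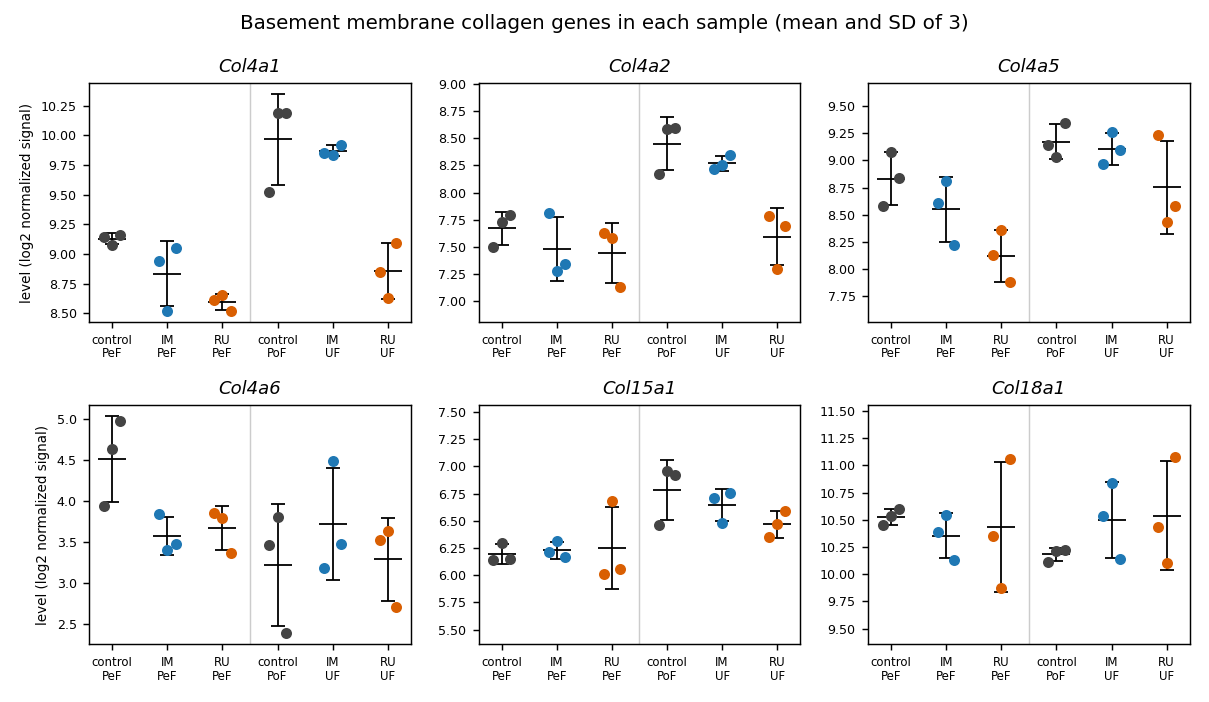
Log2 levels of the basement membrane collagens in each of the 18 arrays by group, with each group's mean and SD of 3 arrays. Col4a1 and Col4a2 are higher in control PoF and IM UF than in the proestrus groups, and the RU UF arrays lie below both.

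Type VI collagen forms beaded filaments around cells. Col6a3, its largest chain (gene ID 367313), had 9.34, 9.29 and 9.03 in control PeF, 9.14, 8.75 and 9.17 in IM PeF and 8.57, 8.50 and 8.54 in RU PeF. Estrus levels were 9.35, 9.87 and 10.07 in control PoF, 9.86, 9.76 and 9.51 in IM UF and 9.04, 8.72 and 9.0 in RU UF. RU486 arrays lay below those of controls and of indomethacin at both times. The differences from controls were -0.68 ± 0.17, adjusted p = 0.0213 at proestrus (0.22 on the signals as deposited), lost without control PeF 1 or RU PeF 1, 2 or 3 (adjusted p = 0.05001 to 0.0741), and -0.84 ± 0.17, adjusted p = 0.00431 at estrus, called in every fit without 1 array. It rose in the controls by 0.55 ± 0.17, adjusted p = 0.0172, lost without control PeF 3 or control PoF 2 or 3 (adjusted p = 0.0650 to 0.108), and with indomethacin by 0.69 ± 0.17, adjusted p = 0.00464. RU UF differed from IM UF by -0.79 ± 0.17, adjusted p = 0.00854, lost without RU UF 2 (adjusted p = 0.0546).

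Col6a1 (gene ID 294337) stood at 7.86, 7.61 and 7.88 in control PeF, 7.75, 7.07 and 7.53 in IM PeF and 6.93, 6.71 and 6.86 in RU PeF. At estrus it stood at 7.51, 7.74 and 7.64 in control PoF, 7.68, 6.93 and 7.35 in IM UF and 7.13, 7.03 and 7.17 in RU UF. All RU PeF arrays were below all control PeF and IM PeF arrays, and the difference from control PeF, -0.95 ± 0.19, 1.93-fold lower, adjusted p = 0.00585, was called in every fit without 1 array. The estrus difference for RU486 was -0.52 (95% interval -0.93 to -0.12, adjusted p = 0.111), not called. Col6a2, the third chain of the common heterotrimer, and Col6a5 passed in no comparison, and Col6a2 stood at 2.07 on control PeF 3 and 1.92 on IM PeF 2, both dim arrays, against 3.66 or more elsewhere.

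Col12a1 and Col14a1 are fibril-associated collagens that lie on the surface of type I fibrils. Col12a1 (gene ID 25683) had 6.59, 6.32 and 6.68 in control PeF, 5.82, 6.66 and 6.21 in IM PeF and 5.43, 4.45 and 5.22 in RU PeF. At the later time it had 7.23, 6.80 and 7.02 in control PoF, 7.18, 6.75 and 6.5 in IM UF and 5.88, 5.93 and 5.73 in RU UF. RU486 follicles were lowest at both times without overlap. The differences from controls were -1.50 ± 0.27, 2.83-fold lower, adjusted p = 0.00239, at proestrus, called in every fit without 1 array, and -1.17 ± 0.27, 2.25-fold lower, adjusted p = 0.0103, at estrus, lost without control PoF 1 (adjusted p = 0.0552). Against indomethacin the proestrus call was lost without IM PeF 2 or RU PeF 2 (adjusted p = 0.0784 to 0.0803) and the estrus call without IM UF 1 or 2 or RU UF 1, 2 or 3 (adjusted p = 0.0838 to 0.147). RU486 follicles rose to estrus by 0.82 ± 0.27, adjusted p = 0.0219, lost without RU PeF 2 or RU UF 1 or 2 (adjusted p = 0.0571 to 0.139), with a difference of 0.53 without RU PeF 2.

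Col14a1 (gene ID 314981) fell with time instead. Proestrus levels were 6.64, 6.52 and 7.62 in control PeF, 6.45, 5.86 and 6.5 in IM PeF and 6.20, 6.28 and 5.70 in RU PeF. Those at estrus were 5.89, 5.99 and 5.66 in control PoF, 5.51, 5.60 and 5.63 in IM UF and 5.47, 5.33 and 5.16 in RU UF. Every control PoF array was below every control PeF array, of which control PeF 3 was the highest. The control change was -1.08 ± 0.27, 2.11-fold lower, adjusted p = 0.00442, in a comparison where the signals as deposited gave 0.38. RU486 follicles changed by -0.74 ± 0.27, adjusted p = 0.0389, lost without RU PeF 1 or 2 or RU UF 1, 2 or 3 (adjusted p = 0.0536 to 0.133). Against controls, RU486 at proestrus gave -0.86 (95% interval -1.44 to -0.29, adjusted p = 0.0613), not called.

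Col7a1 makes the anchoring fibrils that fix a basement membrane to the stroma below. Its levels (gene ID 301012) were 7.16, 7.63 and 8.05 in control PeF, 6.86, 7.95 and 6.97 in IM PeF and 6.17, 6.25 and 5.58 in RU PeF. The estrus levels were 6.74, 6.65 and 6.20 in control PoF, 5.84, 6.32 and 6.06 in IM UF and 5.87, 5.98 and 5.58 in RU UF. RU PeF lay below both other proestrus groups without overlap. The difference from control PeF was -1.61 ± 0.29, 3.06-fold lower, adjusted p = 0.00262, called in every fit without 1 array, and against IM PeF it was -1.26 ± 0.29, adjusted p = 0.0153, lost without IM PeF 2 or RU PeF 3 (adjusted p = 0.0883 to 0.1004). From proestrus to estrus the gene changed in the controls by -1.08 ± 0.29, adjusted p = 0.00694, though by 0.38 on the signals as deposited, and with indomethacin by -1.19 ± 0.29, adjusted p = 0.00434. The change within RU486 follicles was -0.19 (95% interval -0.81 to 0.42, adjusted p = 0.640), which was not called.

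Col13a1, a transmembrane collagen of cell adhesions, was the member called in the interaction of RU486 and time, a call that most fits leaving out 1 array did not make. At proestrus it stood (gene ID 499431) at 5.30, 5.49 and 3.91 in control PeF, 5.10, 5.16 and 5.22 in IM PeF and 4.77, 5.03 and 5.23 in RU PeF. At estrus it stood at 6.37, 6.29 and 6.18 in control PoF, 5.83, 6.14 and 6.12 in IM UF and 4.76, 4.67 and 4.77 in RU UF. All control PoF and IM UF arrays were at 5.83 or more and all RU UF arrays at 4.77 or less, while at proestrus the 3 groups overlapped, with control PeF 3 the lowest array. The control rise was 1.38 ± 0.31, 2.60-fold higher, adjusted p = 0.00209, and was 0.89 without control PeF 3. RU UF differed from control PoF by -1.55 ± 0.31, 2.92-fold lower, adjusted p = 0.00443, called in every fit without 1 array.

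The RU486 effect on Col13a1 at estrus minus that at proestrus was -1.66 ± 0.44, adjusted p = 0.0424. That call was lost without control PoF 1, 2 or 3, IM PeF 3, IM UF 1 or 3, RU PeF 1, 2 or 3 or RU UF 1, 2 or 3 (adjusted p = 0.0526 to 0.104). The indomethacin rise, 0.87 ± 0.31, adjusted p = 0.0404, was lost without control PoF 1, 2 or 3, IM PeF 1, 2 or 3 or IM UF 1, 2 or 3 (adjusted p = 0.0502 to 0.105). The fall against IM UF was lost without IM UF 2 or 3 or RU UF 2 or 3 (adjusted p = 0.0519 to 0.0674).

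Col8a1 and Col8a2 encode the short-chain type VIII collagen of vessel walls and of Descemet's membrane. Col8a1 (gene ID 304021) had 5.44, 4.14 and 6.44 in control PeF, 5.14, 5.42 and 5.69 in IM PeF and 5.54, 4.97 and 4.93 in RU PeF. At estrus it had 5.09, 7.05 and 6.05 in control PoF, 6.88, 6.37 and 7.36 in IM UF and 6.98, 7.46 and 6.43 in RU UF. Control arrays were spread widely at both times and overlapped, while the treated arrays did not overlap between times. The rises were 1.81 ± 0.50, 3.50-fold higher, adjusted p = 0.00800, with RU486, and 1.46 ± 0.50, 2.75-fold higher, adjusted p = 0.0319, with indomethacin, the latter lost without IM PeF 1, 2 or 3 or IM UF 1 or 3 (adjusted p = 0.0504 to 0.123). The controls gave 0.72 (95% interval -0.33 to 1.78, adjusted p = 0.264), not called, and the interactions were 1.09 ± 0.71, adjusted p = 0.434 for RU486 and 0.74 ± 0.71, adjusted p = 0.741 for indomethacin.

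Col8a2 (gene ID 313592) was dim, with 3.74, 3.08 and 2.07 in control PeF, 3.73, 3.07 and 3.69 in IM PeF and 1.92, 3.55 and 3.01 in RU PeF. Estrus levels were 4.04, 3.88 and 3.77 in control PoF, 4.69, 4.46 and 4.66 in IM UF and 4.38, 4.32 and 3.83 in RU UF. Estrus arrays lay above proestrus arrays in every regimen. The rise passed in RU486 follicles, 1.35 ± 0.46, adjusted p = 0.0280, and was lost without RU PeF 1 or RU UF 1 or 2 (adjusted p = 0.0783 to 0.155). The signal of Col8a2 exceeded the array median on the IM UF arrays alone. Fits without IM UF 1, 2 or 3 therefore did not test the gene, and 15 of 18 fits did. Col22a1, a collagen of tissue junctions, changed in the controls by -1.06 ± 0.39, adjusted p = 0.0404, lost without control PeF 3 or control PoF 1, 2 or 3 (adjusted p = 0.0639 to 0.211), and was -0.63 without control PeF 3. Col9a2, Col16a1 and Col17a1 passed in no comparison, and Col16a1 stayed between 6.91 and 7.85 on all 18 arrays.

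**Figure D5:**
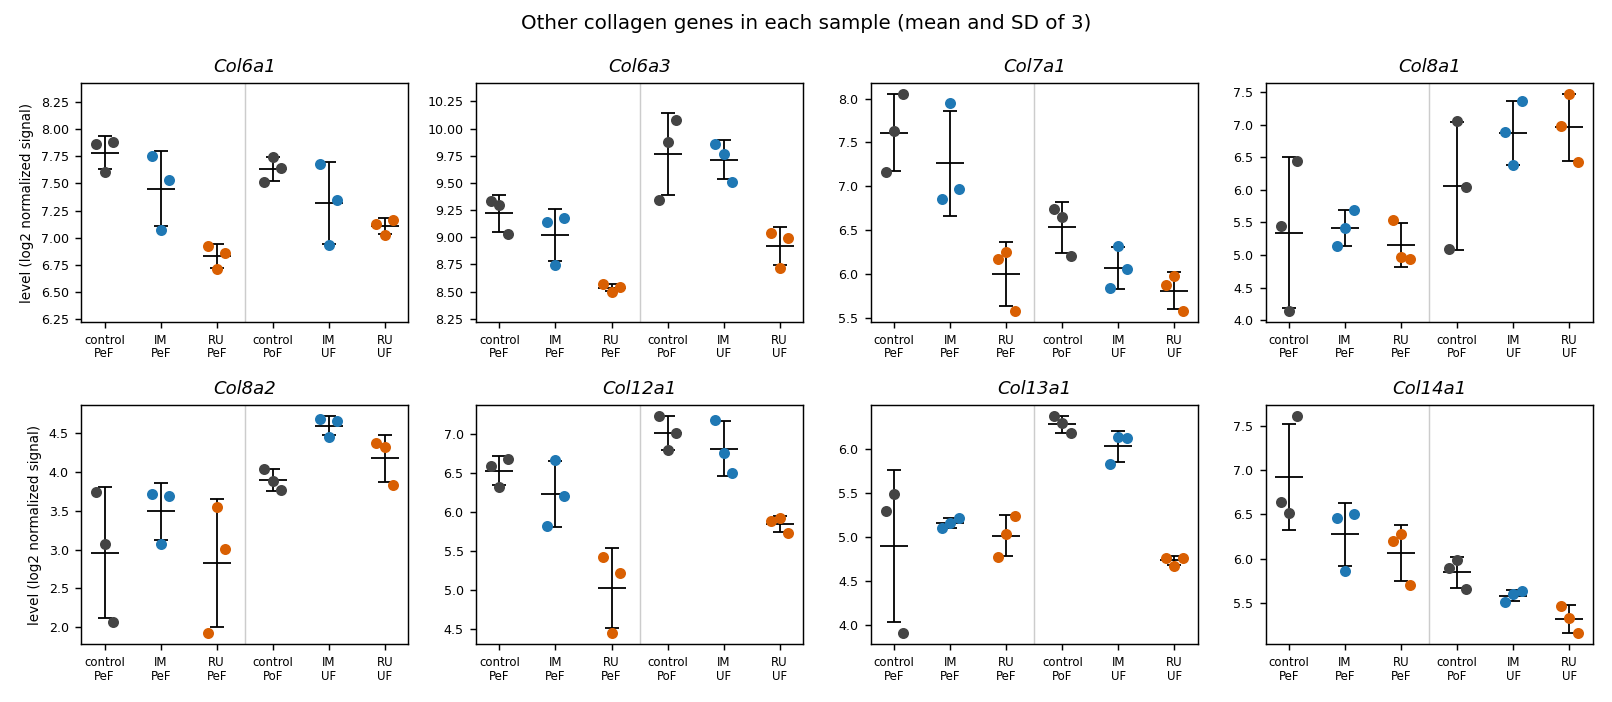
Log2 levels of collagens of neither the fibrillar nor the basement membrane class in each of the 18 arrays by group, with each group's mean and SD of 3 arrays. At each time Col12a1 and Col6a3 are lowest in the RU486 group. Col6a1 and Col7a1 are lowest in RU PeF among the proestrus groups, and Col13a1 is low in RU UF at estrus. On log2 of the signals as deposited the mean of Col6a3 is higher in RU PeF than in control PeF, where control PeF 3 is the dimmest array.

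The 13 members that failed the filter were dim throughout. Their highest level on any array was 5.88 (Col11a2), Col19a1 was at or below background in all 6 groups, and Col4a4 and Col9a1 in 5. Only a bound is known for those groups, and no test was made. For 8 tested genes a second probe set also passed the filter. Over the 88 gene and comparison pairs both probe sets were called in the same direction in 23 and in opposite directions in 0, the probe set used here alone in 6 and the other alone in 5. For Col1a1 the other probe set gave 0.20 (adjusted p = 0.410) in control PoF against control PeF, for Col4a1 0.44 (adjusted p = 0.0882) in IM UF against IM PeF, and for Col5a1 -0.80 (adjusted p = 0.0398) in RU UF against control PoF.

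The genes that fold, process and hold collagens were read from separate lists. Their counts stand beside shares of all genes called of 8.52% in RU PeF and 10.0% in RU UF against controls, and of 44.2%, 37.8% and 42.7% from proestrus to estrus in the control, indomethacin and RU486 regimens, against which the counts between the times are to be read. Of 16 tested folding and modification enzymes and chaperones, 0 were higher and 2 lower in RU PeF: P4ha2 -1.06 ± 0.21 (adjusted p = 0.00481), a prolyl hydroxylase subunit needed for a stable triple helix, and Fkbp14 -0.86 ± 0.24 (adjusted p = 0.0358), a prolyl isomerase of the endoplasmic reticulum. In RU UF 1 was higher and 3 lower, among them Plod2 -1.01 ± 0.18 (adjusted p = 0.00166), a lysyl hydroxylase, P3h3 0.91 ± 0.18 (adjusted p = 0.00438) and P4ha1 -0.81 ± 0.18 (adjusted p = 0.00982). In the controls between the times 6 were higher and 2 lower, led by P4ha2 1.69 ± 0.21 (adjusted p = 7.57e-06), Plod1 1.97 ± 0.38 (adjusted p = 0.000500) and Serpinh1 0.75 ± 0.16 (adjusted p = 0.00106), the last of which encodes the collagen chaperone HSP47. The counts were 5 and 2 in the indomethacin regimen and 7 and 1 in the RU486 regimen.

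Of 7 genes for processing and crosslinking, 1 was lower in RU PeF, Loxl1 -1.18 ± 0.24 (adjusted p = 0.00585), a lysyl oxidase. RU UF had 1 higher and 1 lower, Bmp1 0.72 ± 0.15 (adjusted p = 0.00640), the procollagen C-proteinase, and Lox -1.38 ± 0.22 (adjusted p = 0.000650), the main lysyl oxidase. Between the times 3 were higher and 1 lower in the controls, with Pcolce 1.87 ± 0.21 (adjusted p = 2.71e-06), an enhancer of C-propeptide removal, the first by p-value. Pcolce was also higher at estrus with indomethacin (2.08) and RU486 (2.27).

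Of 14 fibril-associated matrix proteins, 0 were higher and 4 lower in RU PeF, and the first by p-value were Lum -1.37 ± 0.19 (adjusted p = 0.000256), Fn1 -0.75 ± 0.19 (adjusted p = 0.0210) and Dcn -0.93 ± 0.28 (adjusted p = 0.0491). Lumican and decorin are small proteoglycans that bind collagen fibrils, and fibronectin guides fibril assembly. Only Fn1 passed in RU UF (-0.67). In the controls 5 were higher and 3 lower at estrus, with Sparc 1.21 ± 0.24 (adjusted p = 0.000737), Fn1 0.92 ± 0.19 (adjusted p = 0.000922) and Dcn 1.00 ± 0.28 (adjusted p = 0.00811) first.

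Of 14 basement membrane partners, 2 were higher and 3 lower in RU PeF. The first were Pxdn -1.04 ± 0.14 (adjusted p = 0.000151), the peroxidase that crosslinks type IV collagen, Lamb3 2.03 ± 0.27 (adjusted p = 0.000217) and Lama5 -1.33 ± 0.28 (adjusted p = 0.00746), both laminin chains. In RU UF 2 were higher and 1 lower, again with Lamb3 1.65 ± 0.27 (adjusted p = 0.000870) and Pxdn -0.73 ± 0.14 (adjusted p = 0.00228), and Lamb2 0.79 ± 0.19 (adjusted p = 0.0140). In the controls 4 were higher and 5 lower at estrus, led by Lama1 2.32 ± 0.26 (adjusted p = 2.73e-06), Agrn 1.16 ± 0.21 (adjusted p = 0.000341) and Lama2 -0.80 ± 0.18 (adjusted p = 0.00203).

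Of 6 collagen receptors, 0 were higher and 2 lower in RU PeF, the discoidin domain receptor tyrosine kinases Ddr1 -1.50 ± 0.18 (adjusted p = 8.17e-05) and Ddr2 -1.09 ± 0.25 (adjusted p = 0.0123). In RU UF 1 was higher and 0 lower, Adgrg1 1.75 ± 0.44 (adjusted p = 0.0181), an adhesion receptor. Of 6 collagen-cleaving enzymes 0 passed in RU PeF in limma, 3 at an unadjusted p under 0.05, and in RU UF 1 was lower, Mmp2 -0.93 ± 0.28 (adjusted p = 0.0482), a gelatinase. In the controls Pepd 1.77 ± 0.18 (adjusted p = 9.10e-07), the dipeptidase that recycles proline from collagen, and Mmp2 0.98 ± 0.28 (adjusted p = 0.0107) were higher at estrus, and Ddr1 -0.71 ± 0.18 (adjusted p = 0.00512) was lower.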

How the data were processed

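Ovarian follicle RNA was hybridized to Affymetrix arrays, 1 per sample. The authors deposited intensity, as linear signals per probe set that go no lower than 1. The submitters' processing notes name MAS5; no version, role or scaling target was found in the labels. The number of arrays limits the precision.

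Array medians from 4.4 to 27.4 show that the arrays were not on a common scale, so signals were quantile normalised, and log2 was taken after adding 2.79, the 20th percentile of all values. Of 31042 probe sets, with 57 control probe sets left out, the 18158 whose signal exceeded the median of the array on 3 or more of 18 arrays were tested (10382 of 14217 genes), in limma 3.58.1 (R 4.3.3), with 6 group means, 12 residual degrees of freedom, a trend of variance with level, and p-values adjusted by Benjamini-Hochberg over all probe sets in each of 11 comparisons at 0.05. A gene was at background in a group where, on all 3 arrays, its signal was at or below the highest of 27 unspiked control probe sets. Differences are on the log2(signal + 2.79) scale, which understates the change of dim genes.

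The members and gene lists were chosen with earlier results of these data known. Per-array values were given for members called in at least 1 comparison, at most 8 per class by smallest adjusted p, and other genes were named by at most 3 per list and comparison. Promoters and motifs came from RefSeq (GRCr8). Alternatives covered scaling, pseudocount, filter, samples fitted, replicate block, array weights, dim arrays, probe set choice and each array left out. The fit was tested on simulated data.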

Additional observations from a re-analysis of the deposited data

Results flagged for a closer look

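Col13a1 passed the threshold for a difference in the RU486 effect between the times. The RU486 effect at estrus minus that at proestrus was -1.66 (log2; SE 0.44, adjusted p = 0.0424 in limma). The call was lost in 12 of 18 fits that left out 1 array (adjusted p = 0.0526 to 0.104), and no member passed with the replicate block, with no filter on low signals, with only the groups compared or on the signals as deposited. The level was lower in all 3 RU UF arrays than in any control PoF array, and the proestrus groups overlapped. Control PeF 3, the array with the lowest median signal, held the lowest Col13a1 level at proestrus.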

How the results depend on the processing

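Counts of collagen genes called moved with the scaling between arrays, the arrays fitted and the array weights. On the signals as deposited the share of all genes called, in brackets, fell too. There the count was 0 in RU PeF against control PeF (0.154%) and in RU UF against control PoF (0.819%). It was also 0 in RU PeF against IM PeF (0.260%), RU UF against IM UF (0.202%) and the RU486 interaction (0.404%). It was 1 in IM UF against IM PeF (3.70%) and in RU UF against RU PeF (5.71%). There Col11a1 (0.24), Col7a1 (0.38) and Col14a1 (0.38) in control PoF against control PeF, and Col1a2 (0.13), Col5a2 (0.044), Col11a1 (0.0087), Col4a5 (0.21) and Col6a3 (0.22) in RU PeF against control PeF changed sign. The same signals without the 3 dimmest arrays, chosen after seeing the data, gave 20 of 25 in RU UF against control PoF, where 66.2% of all genes were called. They gave 15 of 25 in RU UF against IM UF (32.7% of all genes called) and 5 of 25 in the RU486 interaction (29.1%). None of the main calls tested there changed sign: 59 were called in the same direction and 8 did not pass. Scaling to a common median gave 3 in RU PeF against control PeF (5.31% of all genes called), 2 in RU PeF against IM PeF (3.22%) and 4 in RU UF against IM UF (3.21%). The cause was not tested.

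Fitting only the groups compared gave 3 in RU PeF and 12 in RU UF against their controls and 0 in the RU486 interaction, which was also 0 with no filter. Array weights gave 8 in IM PeF (11.8%) and 13 in RU UF (22.6%) against their controls, and 10 in RU PeF against IM PeF (22.6%). They gave 1 in the indomethacin interaction (3.08%) and 5 in the RU486 interaction (14.6%). Without the 3 dimmest arrays RU UF against control PoF had 12 (19.4%) and the RU486 interaction 3 (9.78%). Leaving out 1 array gave 9 to 14 in control PoF against control PeF (35.5% to 48.0%). Against controls it gave 7 to 12 in RU PeF (4.17% to 10.4%) and 5 to 9 in RU UF (5.48% to 14.6%). From proestrus to estrus it gave 9 to 15 with indomethacin (29.3% to 45.2%) and 7 to 12 with RU486 (35.8% to 50.3%). Between the drugs it gave 3 to 7 at proestrus (3.25% to 9.16%) and 2 to 8 at estrus (4.02% to 12.3%). The RU486 interaction had 0 to 2 (2.28% to 5.90%).

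Arrays with the same replicate number did not deviate together (correlations -0.304 to 0.118, median -0.0078), so the numbers were not taken as pairs. With the number as a replicate block, shares of all genes called are again in brackets. The counts were 14 in control PoF against control PeF (42.9%), and 9 in RU PeF (7.16%) and 7 in RU UF (8.65%) against controls. From proestrus to estrus they were 12 with indomethacin (36.6%) and 10 with RU486 (41.1%). Between the drugs they were 6 at proestrus (5.41%) and 6 at estrus (7.03%). Both indomethacin comparisons had 0 (0% and 0.0578%), as did the interactions of indomethacin (0%) and RU486 (3.65%). Signal over background limits the dim members, such as Col24a1.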
